A study of Mus musculus with 96 samples.

Results

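Single-cell RNA libraries of mouse oocytes and 2-cell blastomeres were sorted by what RNA they held, without use of their stage labels, and the 2 resulting classes were compared across all genes. Members were chosen by 4 measured values. A library needed a total of 100000 gene counts or more and had to detect 4000 genes or more. It was called oocyte-like when Mos, the kinase of metaphase II arrest, reached 100 CPM (counts per 1000000). It was called 2-cell-like when Mos was under 100 CPM and Zfp352, a gene transcribed in the 2-cell embryo, had at least 1 count. Of 96 libraries, 79 passed the depth filter, and 39 were oocyte-like, 39 were 2-cell-like and 1 was neither. Mos and Zfp352 served only to form the classes, and every other difference between the classes is given as a description with no test, because the same libraries' RNA chose the classes.

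The study profiled metaphase II (MII) oocytes and blastomeres of 2-cell embryos from mice with the P620A variant of Padi6. The labels assign 22 libraries to Padi6+/+ oocytes, 22 to Padi6P620A/P620A oocytes, 22 to Padi6+/+ 2-cell embryos, 22 to Padi6MatP620A/+ 2-cell embryos, whose mothers carried the variant, and 8 to negative controls. Females were 4 to 8 weeks old and males 8 to 12 weeks, and all cells followed superovulation with PMSG and, 52 h later, hCG. Oocytes were collected about 13 h after hCG, hyaluronidase (1 mg/ml) took off the cumulus cells, and embryos came from fertilisation in vitro. Polyadenylated RNA of each cell was separated from its DNA, copied with template switching, amplified for 15 cycles and tagmented, with no molecular identifiers named. No animal is named for any library and the strain is not given, so each value describes single cells and not animals, and no genotype was assigned to a class.

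The ovulated mouse oocyte does not transcribe. It lives on RNA stored during growth, and the protein complexes, zona pellucida genes and cell cycle regulators of the egg are among the stored messages. Meiotic maturation and fertilisation set off waves in which stored RNA loses its poly(A) tail and decays, and at the 2-cell stage the embryo's own genome is switched on. That switch includes a burst of multicopy genes such as the Zscan4, Eif1a-like, Tdpoz and Usp17-like families. Because capture relied on the poly(A) tail, a message that is stored without a long tail counts less than its amount, and one that gains a tail counts more.

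Class membership ran against many stage labels. All 14 passing libraries labelled wild-type 2-cell were oocyte-like, and 0 of 19 labelled mutant oocyte were. The label wild-type oocyte held 12 oocyte-like and 7 2-cell-like libraries, and the label mutant 2-cell held 9 and 11. Of 8 negative controls, 4 were oocyte-like and 2 were 2-cell-like, and the other 2 fell below the depth filter with 542 and 1857 counts. In 49 of 72 cell libraries in the classes (68.1%) the class differed from the stage in the label. The classes also followed the order of the deposited table, with oocyte-like libraries in columns 9 to 51 and 2-cell-like libraries in columns 53 to 96, so class and table position cannot be told apart.

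The class border fell in a gap. The 2-cell-like libraries closest to the Mos level had 63.3, 36.0 and 17.9 CPM, and the oocyte-like ones closest to it had 200.6, 476 and 740 CPM. Among libraries under the Mos level the lowest Zfp352 counts were 0, 1, 3, 5 and 18, and the library with 0 is the 1 left out of both classes. Zfp352 had no count in any of the 39 oocyte-like libraries, and Mos had none in 27 of 39 2-cell-like ones. Of the other markers chosen to check the names, Gdf9, H1f8 and Padi6 were lower in 2-cell-like libraries, while Bmp15, Oosp1 and Bcl2l10 had at least 524, 252 and 726 CPM in every oocyte-like library and at least 800, 638 and 2345 CPM in every 2-cell-like one. Oocyte RNA was thus present in both classes. The 2-cell markers Tdpoz4, AF067061 and Usp17la had no count in any oocyte-like library and a count in 33, 37 and 31 of 39 2-cell-like ones, while Duxf3 had a count in 1 and 20.

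**Figure D1:**
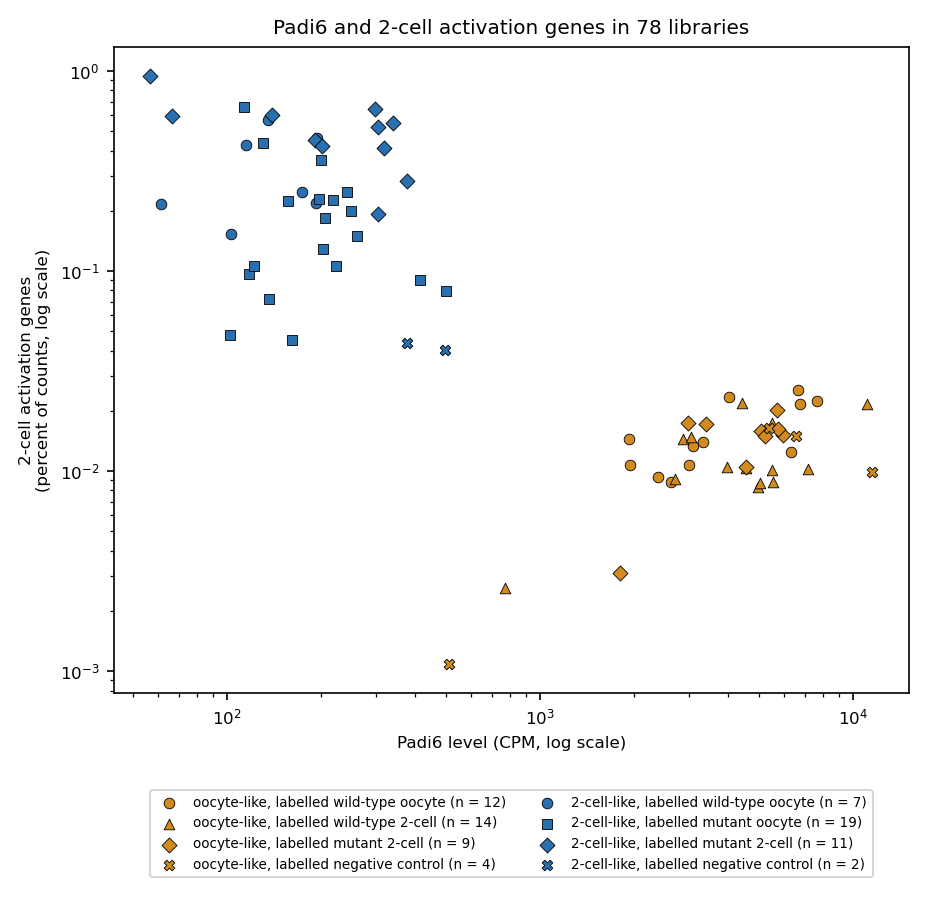
Each point is 1 of 78 libraries, with the level of Padi6 in CPM on the x axis and the share of counts in the 2-cell activation list on the y axis, both on log scales; colour gives the class and shape the label. The 39 oocyte-like libraries lie at 511 CPM or more and at 0.0255% or less, and the 39 2-cell-like ones at 500.0 CPM or less and at 0.0404% or more, under every label that has both.

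Oocyte-like libraries were deeper, with 162539, 3235838 and 5762563 gene counts at the lowest, the median and the highest, against 503644, 1608305 and 3185910 in 2-cell-like ones. They also held more genes, with a median of 13671 against 10370, and still did after every library was thinned to 100000 counts, with medians of 8520 and 7610. The 10 most abundant genes of a library took a median of 7.78% of counts in the oocyte-like class and 11.6% in the 2-cell-like class. CPM is a share of a library's counts. Whether a cell held fewer molecules of a message or more of the others cannot be told apart from it.

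The level of a gene in a class is the median of its CPM over the 39 libraries, and the fold is the ratio of the medians after 1 CPM was added to each. A gene was compared when its median was at least 10 CPM in at least 1 class, which 8200 genes met, and it was counted as higher or lower at 2-fold. Of these, 1426 (17.4%) were higher in 2-cell-like libraries and 2955 (36.0%) were lower. The median log2 ratio of the 8200 was -0.36. At 4-fold the counts were 473 and 1778. The split depended on the scaling: with levels pooled over a class it was 2228 higher and 2698 lower among 10022 genes, and with DESeq2 size factors 984 and 3528. TMM factors put the median log2 ratio of all genes at -0.57 and DESeq2 size factors at -0.69, a shift shared by all genes, and list medians are to be read relative to it.

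Few genes separated the classes completely. The ranges over libraries did not overlap for 12 higher genes (0.146%) and 27 lower ones (0.329%), some of which are named here after their values were seen. In at least 90% of the pairs made of an oocyte-like and a 2-cell-like library, the 2-cell-like one was higher for 386 genes and lower for 881. The 12 higher genes included Pou5f1, Syce2, Med28, Sebox, mt-Nd5, Olfr624 and 5 with clone-style names (Gm19553, Gm44087, Gm48578, Gm44792 and Gm4340). The lower ones included Padi6, Bub1b, Ctnnb1 (beta-catenin), Hsp90aa1, Lamb1, Npc1, Cnbp and Cited2. A median of 0 was common on the 2-cell-like side, so folds of several of the lower genes below are set by the added 1 CPM, and the ratio of pooled levels is given beside them.

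**Figure D2:**
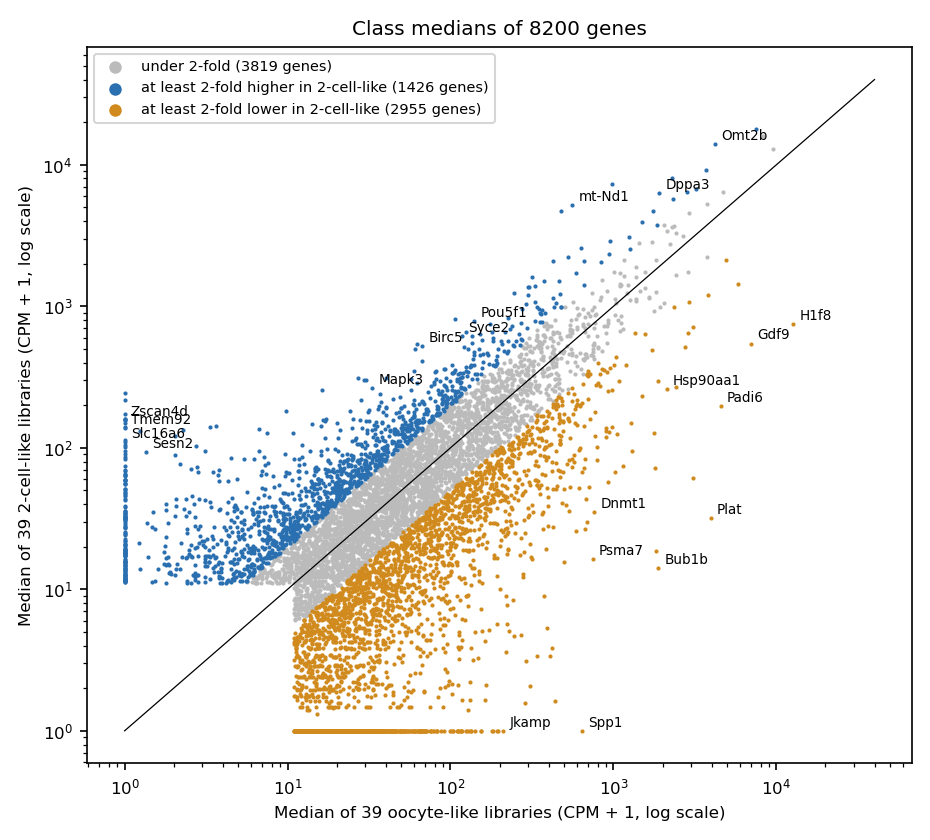
Each point is 1 of 8200 genes, at its median over 39 oocyte-like libraries (x axis) and 39 2-cell-like libraries (y axis), in CPM with 1 added, on log scales. Points off the diagonal by at least 2-fold are coloured, 1426 above it and 2955 below it, and the rows at the edges are genes with a median of 0 in a class.

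The egg secretes growth factors and builds a coat, the zona pellucida. Of 12 genes compared on that list, 5 were lower and 0 higher, beside 36.0% lower and 17.4% higher over all genes, and the median log2 ratio was -0.80 against -0.36. Gdf9, a growth factor that the oocyte sends to the follicle, had 1110.1, 6981 and 23779 CPM at the lowest, the median and the highest of oocyte-like libraries and 118, 544 and 1699 CPM in 2-cell-like ones, 12.8-fold lower. Only the edges of its ranges overlapped. Astl, the protease that cleaves ZP2 after fertilisation, was 13.1-fold lower, at medians of 513 and 38.3 CPM. Zp2 and Zp3, which encode sperm-binding coat proteins, were 6.51-fold and 4.83-fold lower. Bmp15, the partner of Gdf9, stayed within 2-fold, at 3772 and 2235 CPM, as did Oosp3 at 2681 and 3148 CPM.

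Padi6 led the genes of the subcortical maternal complex and the cytoplasmic lattices, structures that store proteins in the egg and that embryos need to pass the first divisions. Its lowest, median and highest levels were 511, 4547 and 11536 CPM in oocyte-like libraries and 56.7, 196 and 500.0 CPM in 2-cell-like ones. The ranges did not overlap, and the fold was 23.0 (pooled levels, 20.8, counting interval 20.5 to 21.2). Within the oocyte-like class its median was 3199.9 CPM under the label wild-type oocyte, 4749.6 CPM under wild-type 2-cell and 5071 CPM under mutant 2-cell. Within the 2-cell-like class it was 135, 199.9 and 298 CPM under wild-type oocyte, mutant oocyte and mutant 2-cell. The variant changes the protein and not the dose of the gene, so these levels do not check a genotype.

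Other genes of the complex did not follow Padi6 as a block: 7 of 13 were lower, 1 was higher and 5 were within 2-fold, beside 36.0% lower and 17.4% higher over all genes, with a median log2 ratio of -1.23. Nlrp14 had medians of 1888 and 295 CPM and Nlrp5 (also called Mater) 661 and 141 CPM, 6.37-fold and 4.66-fold lower. Tle6 was 2.66-fold lower. Ooep and Khdc3, 2 core members, were level, at 80.7 against 76.6 CPM and at 61.5 against 60.9 CPM. Zbed3 was 2.40-fold higher, with 1205.8, 7502 and 13465 CPM in oocyte-like libraries and 3988, 18009 and 38175 CPM in 2-cell-like ones. The summed share of the list, Zbed3 included, had medians of 2.22% and 2.40% in the classes.

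Linker and variant histones package DNA, and the egg has forms of its own. H1f8, the linker histone of oocytes, had 1760.0, 12720.4 and 30534 CPM in oocyte-like libraries and 140.2, 750.2 and 2348 CPM in 2-cell-like ones, 16.9-fold lower. H2az1 and H2az2, which encode the variant H2A.Z, were 3.60-fold and 4.39-fold higher by the medians. The ratio of pooled levels was 1.35 for H2az1, with the highest oocyte-like library at 2685 CPM, and 2.30 for H2az2. H3f3b, a source of the replacement histone H3.3, was level, at 1554 and 1749 CPM. On the list as a whole 3 of 18 genes were higher and 5 lower, at or below the 17.4% and 36.0% of all genes.

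**Figure D3:**
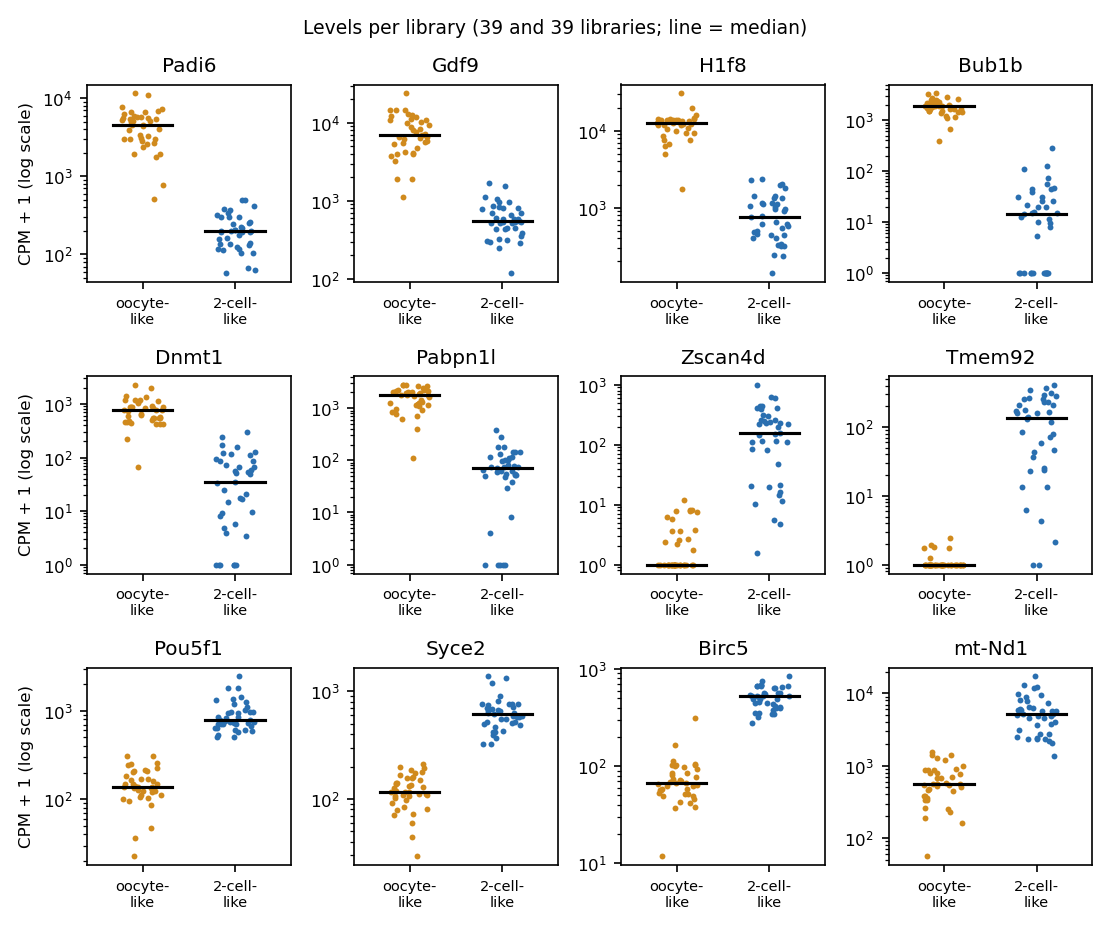
Level of 12 genes in each library (points, CPM with 1 added, log scale) for the 39 oocyte-like and 39 2-cell-like libraries, with a line at the median. Padi6, Bub1b, Pou5f1 and Syce2 do not overlap between classes, and Dnmt1, Pabpn1l and Bub1b spread down to 0 only in 2-cell-like libraries.

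Among genes of metaphase II arrest and M phase, 5 of 29 were higher and 9 lower, and the median log2 ratio was -0.30, close to the 17.4% higher, 36.0% lower and -0.36 of all genes. Bub1b, the spindle checkpoint protein BubR1, had 380.5, 1879.8 and 3339 CPM in oocyte-like libraries and 0, 13.2 and 283 CPM in 2-cell-like ones. These ranges did not overlap. The fold was 132, or 69.7 with pooled levels (counting interval 66.4 to 73.1). Ccnb3, an M-phase cyclin, was 11.7-fold lower (4.14 pooled). Aurkc, the germ cell Aurora kinase, was 3.10-fold lower and Fbxo43, which encodes the arrest factor EMI2, was 2.86-fold lower. Ccnb1, the main M-phase cyclin, was within 2-fold at 2409 and 1672 CPM.

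In the same list Birc5 and Mapk3 stood on the other side. Birc5, which encodes survivin of the chromosomal passenger complex, had 10.9, 65.7 and 311.5 CPM in oocyte-like libraries and 279.9, 524 and 837 CPM in 2-cell-like ones, 7.86-fold higher, with a small overlap. Mapk3, the kinase ERK1, was 7.97-fold higher at medians of 32.2 and 264 CPM. Cdk1, the M-phase kinase, was 3.80-fold higher. On the list of the meiotic chromosome axis 4 of 13 genes were higher and 3 lower, beside 17.4% and 36.0% of all genes. Syce2, a synaptonemal complex protein, had 28.6, 116 and 209.8 CPM against 322, 616 and 1374 CPM, 5.27-fold higher with no overlap. Smc3, a cohesin subunit, was 8.27-fold lower.

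Genes that store, tail or destroy maternal messages lay on both sides. Of 28 decay genes compared, 8 were lower and 2 higher (median log2 ratio -0.21), and of 21 storage and translation genes 8 were lower and 5 higher (-0.46). Pabpn1l, an oocyte poly(A)-binding protein that works with Btg4 in clearance, had 107.7, 1789 and 2787 CPM in oocyte-like libraries and 0, 71.5 and 376.5 CPM in 2-cell-like ones, 24.7-fold lower. Btg4, the adaptor that brings the CCR4-NOT deadenylase to messages, was 1.40-fold higher, at 3742 and 5244 CPM. Cnot7, a catalytic subunit of that deadenylase, was 1.26-fold higher. Dcp1a, of the decapping complex, was 6.40-fold lower and its partner Dcp2 2.71-fold higher.

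Among storage factors, Zar1, an RNA-binding protein of the oocyte's mitochondria-associated store, had medians of 904.5 and 118 CPM, 7.61-fold lower. Cpeb1, which controls cytoplasmic polyadenylation, was 5.61-fold lower and Dazl, a germ cell translation regulator, 3.87-fold lower. Eif4e1b, the egg's cap-binding protein, was 2.34-fold higher, at 379 and 889 CPM. Rbpms2, an RNA-binding protein of the oocyte, was 4.04-fold higher. The background for both lists was 17.4% higher and 36.0% lower.

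Of 11 genes of DNA methylation, 7 were lower and 1 higher, beside 36.0% and 17.4% of all genes, with a median log2 ratio of -1.23. The list's summed share of counts went the other way, at medians of 0.626% in oocyte-like and 0.796% in 2-cell-like libraries. Dnmt1, the maintenance methyltransferase, had 66.5, 759.5 and 2265 CPM in oocyte-like libraries and 0, 34.3 and 299 CPM in 2-cell-like ones, 21.5-fold lower (14.1 with pooled levels, counting interval 13.6 to 14.5). Zfp57, which guards methylation at imprinted regions, was 6.36-fold lower (3.85 with pooled levels) and its corepressor Trim28 3.93-fold lower. Uhrf1, which recruits DNMT1, and Tet3, the oxidase of the zygote, were 2.35-fold and 2.38-fold lower. Dppa3 (Stella), which protects maternal methylation from TET3, was the gene that was higher, with 193, 1903 and 4059.9 CPM against 2337, 6324 and 14881 CPM, 3.32-fold. In the oocyte transcription factor list 4 of 10 genes were lower and 1 higher, near the shares over all genes. Obox2, a homeobox gene, was 13.9-fold lower at 1306 and 93.2 CPM, whereas Obox5 was 1.94-fold higher.

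The 2-cell activation list had the highest median of the 27 lists with a compared gene. Of 57 genes listed, 43 besides Zfp352 were found in the table and 31 were compared, and 29 of these were higher and 0 lower, with a median log2 ratio of 5.26. The list's share of all counts, Zfp352 left out, was 0.00109%, 0.0139% and 0.0255% at the lowest, the median and the highest of oocyte-like libraries and 0.0404%, 0.226% and 0.939% in 2-cell-like ones. All 39 2-cell-like libraries lay above every oocyte-like one. Zfp352, which helped to form the classes, is expressed in the same burst, so the direction of the list is partly given by the rule. The filter also fixed the direction for Zscan4d, Tmem92, Eif1ad7 and Eif1ad15. Each had an oocyte-like median of 0 and reached a median of 10 CPM only in 2-cell-like libraries. How many other members did so was not counted, so the count of higher genes is not independent support.

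Zscan4d, of a family active in 2-cell embryos and in rare embryonic stem cells, had 0, 0 and 11.1 CPM in oocyte-like libraries and 0.548, 156 and 988 CPM in 2-cell-like ones. A count was present in 16 and 39 libraries, and pooled levels differed 96.1-fold (counting interval 84.2 to 110.1). Tmem92 had 0, 0 and 1.43 CPM against 0, 136 and 409 CPM, 1103-fold with pooled levels (657 to 2019). Tdpoz8 had no count in any oocyte-like library and a median of 149 CPM in the other class. Set against a floor of 3 counts over the oocyte-like pool (0.0268 CPM), Tdpoz8 was 6057-fold higher, and Eif1ad16, of the Eif1a-like family, 5679-fold. The lower ends of their counting intervals were 4925 and 4618. Usp17lb, a deubiquitinase gene, was at 93.7 CPM against 0 by the medians, 626-fold with pooled levels (417 to 989). The members of these families are near copies of each other, so their counts may be split among copies and the value of a single copy is uncertain.

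The activation genes varied widely among 2-cell-like libraries. Median Zscan4d was 296 CPM in the 11 libraries labelled mutant 2-cell, 255 CPM in the 7 labelled wild-type oocyte and 81.5 CPM in the 19 labelled mutant oocyte. It was 15.3 and 20.2 CPM in the 2 labelled negative control. The list's share in the same order was 0.524%, 0.249% and 0.149% by the medians. Sp110 and Arg2 were the 2 compared members within 2-fold.

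Promoters are shown for 3 activation genes of different families that had a median of 0 in oocyte-like libraries, and for Padi6 as a stored message. Each runs from 250 bases before to 50 bases after the start of the gene in RefSeq (GRCm38.p6, matched by symbol, an earlier build than the GRCm39 named for the counts, the first of 2 entries for Tdpoz8). Capitals mark matches to TATAAA (the TATA box), GGATTA (a core of bicoid-type homeobox factors), TAATTG (a homeobox core) or GGGCGG (the SP1 box), searched on both strands, and no marked matches overlap.
Zscan4d, chr7:11166099-11166398, minus strand: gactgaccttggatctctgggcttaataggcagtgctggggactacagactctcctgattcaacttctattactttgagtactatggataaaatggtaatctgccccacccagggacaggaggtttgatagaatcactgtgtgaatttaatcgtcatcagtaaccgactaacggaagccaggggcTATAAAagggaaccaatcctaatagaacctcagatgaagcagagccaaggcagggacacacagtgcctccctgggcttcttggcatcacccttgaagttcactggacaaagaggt
Tdpoz8, chr3:93068573-93068872, plus strand: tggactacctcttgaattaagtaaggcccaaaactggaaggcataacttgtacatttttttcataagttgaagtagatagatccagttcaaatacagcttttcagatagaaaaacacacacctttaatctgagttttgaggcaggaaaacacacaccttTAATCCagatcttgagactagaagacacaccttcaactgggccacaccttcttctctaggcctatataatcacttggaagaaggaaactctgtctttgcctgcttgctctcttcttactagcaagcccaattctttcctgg
Usp17lb, chr7:104842534-104842833, minus strand: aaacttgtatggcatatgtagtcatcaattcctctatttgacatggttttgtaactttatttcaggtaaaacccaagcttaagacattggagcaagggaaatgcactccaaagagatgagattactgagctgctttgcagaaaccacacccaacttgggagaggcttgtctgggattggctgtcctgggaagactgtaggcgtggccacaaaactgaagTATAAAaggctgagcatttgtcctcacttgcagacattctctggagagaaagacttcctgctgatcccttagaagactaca
Padi6, chr4:140742594-140742893, minus strand: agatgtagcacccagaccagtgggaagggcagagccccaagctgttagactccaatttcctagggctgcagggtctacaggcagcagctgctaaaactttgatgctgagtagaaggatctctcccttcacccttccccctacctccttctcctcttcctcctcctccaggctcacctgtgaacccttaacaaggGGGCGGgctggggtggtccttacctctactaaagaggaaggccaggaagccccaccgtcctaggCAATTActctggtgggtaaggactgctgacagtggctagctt

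A TATAAA match began 65 bases before the start in Zscan4d (position -65) and at -31 in Usp17lb, Tdpoz8 had GGATTA on the minus strand at -91, and Padi6 had GGGCGG at -56 and TAATTG on the minus strand at 9. Over all 27025 promoters of the table, TATAAA was in 14.2%, GGATTA in 7.16%, TAATTG in 8.15% and GGGCGG in 35.9%. A match is a run of letters and not a bound site. Shares among higher and lower genes are not compared, because only 66.2% of the genes at least 4-fold higher had a promoter in the table, which makes that check void.

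The naming rule also took genes with a high CPM, a scale that is not corrected for gene length. Omt2b and Omt2a, which are oocyte-expressed genes, were 3.35-fold and 3.49-fold higher, at medians of 4190.2 and 14027 CPM for Omt2b and 2297 and 8018 CPM for Omt2a. Oog3 was 2.47-fold higher and Tcl1b1 2.24-fold. For each, at least 90% of library pairs had that order. Within the labels wild-type oocyte and mutant 2-cell, the log2 ratio was 1.15 and 0.38 for Oog3. For Tcl1b1 it was 0.73 and 1.44, so both genes fell under 2-fold within a label. All 4 had counts in all 39 libraries of both classes.

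Among early embryo transcription factors, 6 of 13 were higher and 3 lower, beside 17.4% and 36.0% of all genes. Pou5f1 (Oct4), the pluripotency factor, had 21.8, 138 and 308 CPM in oocyte-like libraries and 506, 782 and 2443 CPM in 2-cell-like ones, 5.62-fold higher with no overlap (6.10 with pooled levels). Tbx3, a T-box factor, was 5.72-fold higher. Esrrb, an orphan nuclear receptor, was 7.90-fold lower (2.81 with pooled levels), Gata3, a factor of the trophoblast, 4.44-fold lower and Sall4, a zinc finger factor, 4.44-fold lower. Klf17, a maternal Kruppel-like factor, was within 2-fold at 1640.1 and 1143 CPM. Sebox, a homeobox gene of oocytes named after its values were seen, had 0, 26.2 and 60.0 CPM against 115.5, 313 and 605 CPM, 11.6-fold higher with no overlap.

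Of 20 maternal regulators of genome activation, 2 were higher and 6 lower (median log2 ratio -0.21), near or below the 17.4% and 36.0% of all genes. The list's summed share of counts was higher in the 2-cell-like class, at medians of 0.644% and 0.960%. On that share 27 of 39 2-cell-like libraries lay above every oocyte-like one. Dppa4, which with Dppa2 acts upstream of Dux, had medians of 0 and 31.3 CPM, 19.0-fold higher with pooled levels, while Dppa2 was 1.24-fold higher at 25.6 and 31.9 CPM. Nfya, a subunit of the CCAAT-binding factor, was 3.00-fold lower. In the histone methylation list 5 of 30 genes were higher, about the share over all genes, and 5 were lower, below it. Kdm5b, an H3K4 demethylase that acts in the 2-cell embryo, was 12.1-fold higher (5.35 pooled), and Setdb1 and Ehmt1, H3K9 methyltransferases, were 2.87-fold and 5.01-fold lower.

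All 11 compared genes encoded by mitochondrial DNA were higher in 2-cell-like libraries, from 2.48-fold for mt-Co3 to 9.93-fold for mt-Co1, with a median log2 ratio of 2.27. The genes code for subunits of the respiratory chain and the ATP synthase. Their share of counts was 0.0295%, 0.278% and 0.592% in oocyte-like libraries and 0.600%, 2.12% and 6.67% in 2-cell-like ones, with no overlap. mt-Nd1 had 55.4, 558 and 1528 CPM against 1372, 5187 and 17097 CPM. Nuclear genes of the same chain did not share this direction gene by gene: 9 of 63 were higher and 31 lower (median log2 ratio -0.82). Over all genes 17.4% were higher and 36.0% lower. The summed share of the nuclear list had medians of 0.332% in oocyte-like and 0.418% in 2-cell-like libraries, with overlapping ranges. Uqcrc2, a core subunit of complex III, had 83.4, 182 and 360.1 CPM against 0, 0 and 81.7 CPM, 16.8-fold lower with pooled levels and without overlap.

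Housekeeping lists are read against the background of 36.0% lower and 17.4% higher. For the proteasome 17 of 33 genes were lower and 2 higher (median log2 ratio -1.04). Psma7, a subunit of its core ring, had 189, 746 and 2736 CPM against 0, 15.4 and 159 CPM, 45.6-fold lower with no overlap. For translation initiation factors 15 of 39 were lower and 4 higher. Eif3m, of the eIF3 complex, was 51.5-fold lower with pooled levels, while Eif5a and Eif6 were 2.95-fold and 5.25-fold higher. For cytosolic ribosomal proteins 18 of 79 were lower and 4 higher (median log2 ratio -0.43), and 57 stayed within 2-fold. In that order, the summed shares of these lists had medians of 0.563%, 0.593% and 0.368% in oocyte-like libraries. In 2-cell-like ones the medians were 0.313%, 0.697% and 0.463%.

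Replication genes included 15 lower and 5 higher of 36. Mcm7, of the replicative helicase, was 5.72-fold lower (2.87 with pooled levels), and Ccne1, cyclin E1, and Gmnn, the licensing inhibitor geminin, were 6.88-fold and 3.07-fold higher. Nucleolus and ribosome biogenesis genes split into 18 lower and 7 higher of 39, and spliceosome genes into 16 and 6 of 43. RNA polymerase II and its general factors split evenly, with 7 of 30 each way, beside the same background, and a median log2 ratio of -0.00. Egg activation genes, which handle calcium and zinc, were lower in 4 of 12 and higher in 0, with Atp2b1, a calcium pump of the plasma membrane, 13.1-fold lower.

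**Figure D4:**
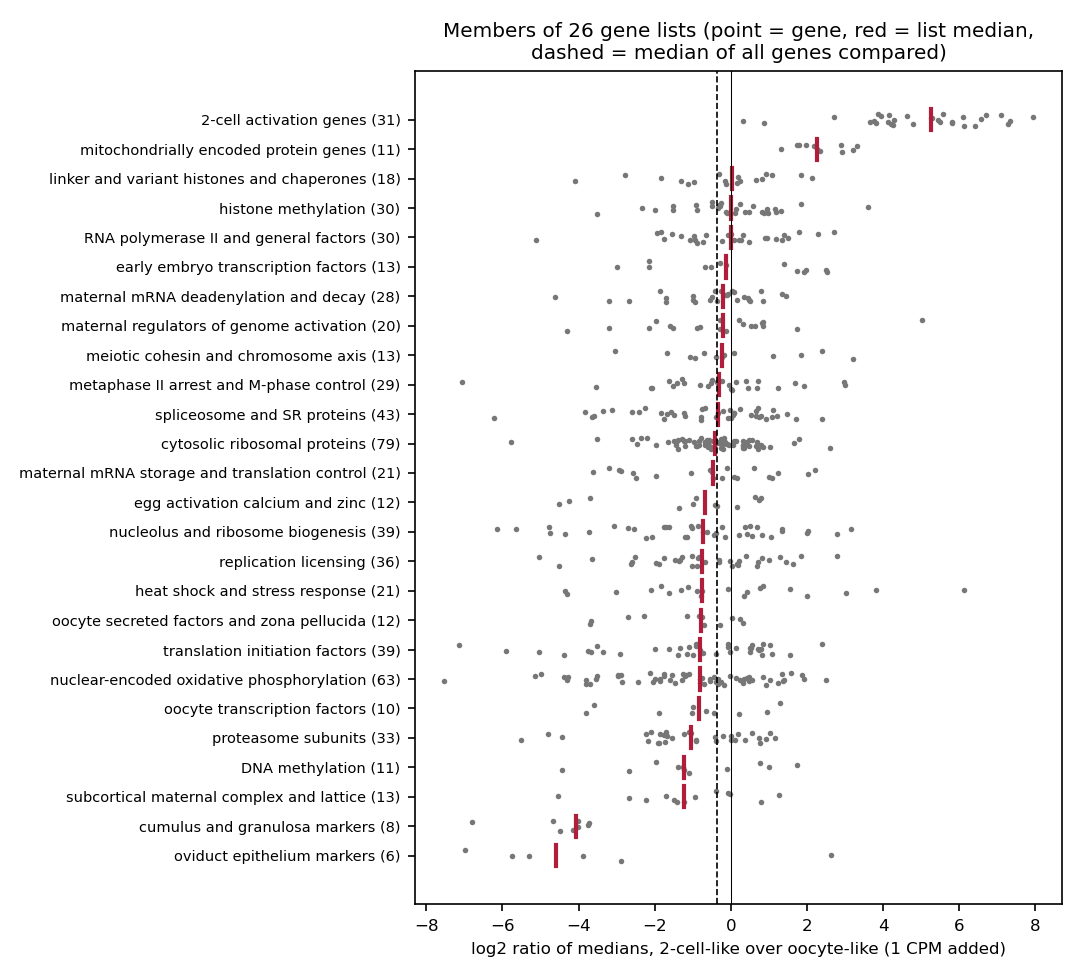
Each point is a compared gene of 1 of 26 lists (rows, with the number of genes), at its log2 ratio of medians, 2-cell-like over oocyte-like; red bars are list medians, the dashed line is the median of all genes (-0.36) and the solid line is 0. The activation list (5.26) and the mitochondrially encoded genes (2.27) lie to the right, and the cumulus (-4.08) and oviduct (-4.60) marker lists to the left.

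Of 21 heat shock and stress genes, 5 were higher and 8 lower, near the 17.4% and 36.0% of all genes. Hsp90aa1, the inducible HSP90, had 974, 2120.5 and 6368 CPM in oocyte-like libraries and 55.3, 261 and 601 CPM in 2-cell-like ones, 8.11-fold lower with no overlap. Sesn2, a stress-induced regulator of TORC1, had medians of 0.354 and 92.6 CPM, 26.5-fold higher with pooled levels. Ddit3 (CHOP) and Atf4, of the integrated stress response, were 14.1-fold and 4.03-fold higher by the medians. With pooled levels they were 7.57-fold and 2.29-fold higher.

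Plat was among the lower genes that the naming rule took. It encodes tissue plasminogen activator, whose message is a textbook case of stored, short-tailed RNA that is translated at maturation, and it had 409, 3941 and 8333 CPM against 0, 30.7 and 922 CPM, 60.8-fold lower with pooled levels. Jkamp and Tmem50a, both membrane proteins, had medians of 210.4 and 192 CPM against 0 and no overlap, 25.0-fold and 34.4-fold lower with pooled levels. Tpra1, Pms1, a mismatch repair gene, and Grn, which encodes progranulin, were 30.1-fold, 31.2-fold and 32.3-fold lower with pooled levels. Oas1d and Rbbp7, the latter a histone-binding protein, had medians of 1426 and 711 CPM in 2-cell-like libraries and were 4.07-fold and 4.31-fold lower.

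Markers of other cells moved with the classes. All 8 compared cumulus and granulosa markers of 24 in the list were lower in 2-cell-like libraries, beside 36.0% of all genes. The filter fixed this direction for Hsd3b1, Fst, Inha and Cyp11a1. Each had a 2-cell-like median of 0 and reached a median of 10 CPM only in oocyte-like libraries. The list's share of counts was 0.0526%, 0.122% and 1.47% in oocyte-like libraries and 0%, 0.0105% and 0.0267% in 2-cell-like ones, with no overlap. Serpine2, at 475 CPM or more in every oocyte-like library, was the 1 compared member whose ranges did not overlap. The list's shares without Serpine2 were not computed. The steroid enzyme gene Hsd3b1 had 0, 110.4 and 4024 CPM against 0, 0 and 0.970 CPM. Among the 39 oocyte-like libraries, Hsd3b1 had a count in 35, Cyp11a1 in 34 and Fst in 29. Inha, which marks granulosa cells, had a count in 33 oocyte-like libraries and in 1 2-cell-like one. Spp1 (osteopontin) led the lower genes by ratio, at 0, 639.8 and 25258 CPM against 0, 0 and 107 CPM.

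Oviduct markers were lower for 5 of 6 compared, among them Ovgp1, the oviduct glycoprotein, at medians of 125 and 0 CPM. Epcam was 6.16-fold higher (3.47 with pooled levels). Ovgp1, Cldn4, Krt18 and Krt19 had a 2-cell-like median of 0, so the filter fixed their direction as well. Of 16 sperm markers only Odf2l reached the level to be compared, 5.61-fold lower with pooled levels, and none of 14 blood markers did. The part of these cells in the other differences was not tested gene by gene. Without the 22 oocyte-like libraries that had over 0.1% of counts in cumulus and granulosa markers, 1527 genes were higher and 2829 lower. That share includes Serpine2, which was present in every oocyte-like library. Whether the cut sorts libraries by RNA of other cells alone was not tested.

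Levels varied more among 2-cell-like libraries. The interquartile range of log2(CPM + 1), taken per gene, had a median of 2.10 in 2-cell-like and 0.95 in oocyte-like libraries. Depth and low medians enter this measure, so it was repeated for the 1163 genes with a median of at least 100 CPM in both classes, where it was 0.98 and 0.69. The range was larger in the 2-cell-like class for 80.1% of those genes. Thinned to 100000 counts, the comparison gave 1495 higher and 3609 lower genes.

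Both classes occurred under the labels wild-type oocyte (12 oocyte-like, 7 2-cell-like) and mutant 2-cell (9 and 11), which share no library. Within the former, 1936 of 8309 genes compared were higher and 3039 lower, and within the latter 2160 and 3054 of 8465. Of the 1426 higher and 2955 lower genes of the whole comparison, 1152 and 2531 were at least 2-fold in that direction within the former. Within the latter, 1201 and 2522 were. The libraries of both labels are among the 78 that set those genes, so part of this overlap is built in. Over 7750 genes compared under both labels, the log2 ratios had a Pearson r of 0.82 and a Spearman rho of 0.80 across genes, which are not independent replicates, and both sides share the rule that formed the classes. Of 3502 genes at least 2-fold either way under both, 3412 had the same direction.

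For single genes, the log2 ratio of Padi6 was -4.56 under wild-type oocyte and -4.09 under mutant 2-cell, and that of Bub1b -6.99 and -6.58. Dnmt1 was at -3.19 and -3.41, Pou5f1 at 2.54 and 2.06, and Zscan4d at 8.00 and 8.22. mt-Nd1 was at 3.51 and 2.73. Hence these 6 differences were present within libraries of a single label. Spp1 was at -3.54 and -8.94.

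**Figure D5:**
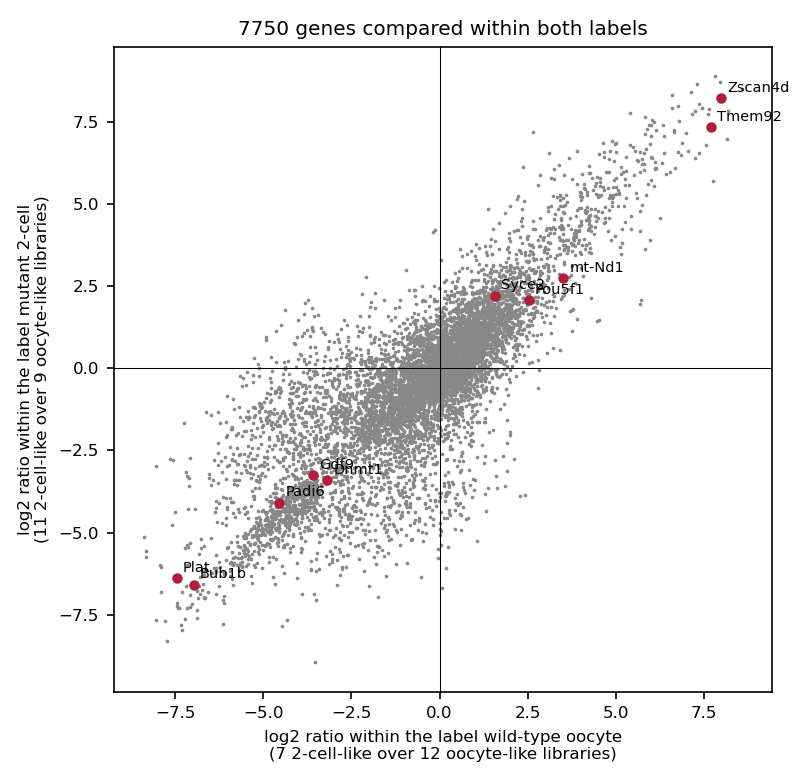
Each point is 1 of 7750 genes, at its log2 ratio of medians (2-cell-like over oocyte-like) within the label wild-type oocyte (x axis, 7 over 12 libraries) and within the label mutant 2-cell (y axis, 11 over 9 libraries). Padi6, Bub1b and Dnmt1 (red, named) lie at the lower left and Zscan4d, Pou5f1 and mt-Nd1 at the upper right under both labels.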

How the data were processed

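The authors deposited raw gene counts for 96 libraries in 1 table. Per the submitters' processing notes, Trim Galore 0.4.4, HISAT2 2.1.0, DESeq2 and GRCm39 were used; the counting tool and annotation are not given in the sources used here. Of 36983 rows, 48 repeated a symbol and were summed, leaving 36935 genes, and all columns matched a sample. CPM was a gene's counts over its library's total times 1000000. Groups by label share no replicate numbers. Named genes were the 12 with the largest ratio in each direction that had a proper name and at least 90% of library pairs in 1 order, among such genes the 6 with the highest median, and up to 4 per list with the largest ratio. The classes, the 28 gene lists and this rule were chosen with earlier results of these data known. Pooled levels are summed counts over summed totals (111959266 and 64890102 counts), with exact 95% intervals that cover counting error only, since PCR reads are not independent molecules. Doublets were not searched for. On simulated data the comparison called 100% of genes made 4-fold higher or lower and 0.187% of unchanged ones (8227 genes). The changed genes were drawn only from levels well above the 10 CPM filter, so the 100% does not cover genes near it. The simulation gave both classes the same variability, whereas the real 2-cell-like libraries varied more. The 0.187% is thus not an error rate for these data. There were 19 settings, the reported one included, besides leaving out each library. Among them were edgeR 4.0.16 TMM factors and DESeq2 1.42.0 size factors. Scripts ran in Python 3.11.15 and R 4.3.3. Promoters came from RefSeq, GRCm38.p6. A few genes are not reported here.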

Additional observations from a re-analysis of the deposited data

Results flagged for a closer look

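The library with label number 86, labelled mutant 2-cell, had neither Mos at 100 CPM nor a Zfp352 count. Its counts in cumulus and granulosa markers came to 0.826%, above the 0.684% that was the highest among libraries labelled negative control that passed the depth filter. That control was itself oocyte-like, with Mos at 476 CPM, so it does not give a blank level. The highest oocyte-like library had 1.47%. Gdf9 and Pou5f1 had no count in it, Padi6 was at 4.21 CPM and Inha, a granulosa marker, at 509 CPM.

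The library with label number 82, labelled mutant 2-cell, fell below the filter with 2486 genes. Its Zscan4d level was 766.5 CPM, against 20.2 CPM at the highest in passing negative controls. The control with 20.2 CPM was classed as 2-cell-like and does not give a blank level. The highest 2-cell-like library had 988 CPM. Padi6 and Gdf9 had no count in it.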

How the results depend on the processing

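The 1426 higher genes became 2228 with pooled levels, 728 with a filter of 50 CPM and 2160 within the label mutant 2-cell, and the 2955 lower genes became 1197 with a filter of 50 CPM and 5799 with no gene filter. Leaving out each library in turn gave 1410 to 1479 higher genes, 2894 to 3004 lower genes and a median log2 ratio of -0.38 to -0.32. With pooled levels, 1275 of the 1426 and 2023 of the 2955 were still at least 2-fold, and 7 and 116 changed direction. Higher genes made up 32.5% of those counted, 45.2% with pooled levels, 25.2% with TMM factors and 21.8% with DESeq2 size factors. Of the 130 named genes, 4 values of 2600 changed direction: Hormad1 (-0.13 within the label wild-type oocyte and -0.17 within numbers 1 to 48), Taf4b (-0.31) and Kdm3b (0.12) within the label wild-type oocyte; the cause was not tested. Another 182 values moved by more than the spread between libraries. Of 539 list medians, 40 moved so and 0 called ones changed direction. No paired analysis was possible because the groups compared share no replicate numbers. Depth limits genes with a median of 0: no count in the whole 2-cell-like pool allows up to 0.0462 CPM, for counting error only.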

Other observations

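Over all genes compared, 36 higher genes had no count in any oocyte-like library. Among them Crxos, a homeobox gene, had a median of 32.0 CPM in 2-cell-like libraries, and Bex6 and Fthl17f had 25.9 and 11.7 CPM. The olfactory receptor gene Olfr787 had 11.1 CPM. In the other direction, 5 lower genes had no count in any 2-cell-like library: Gstm2, Pdha2, Ifitm2, Ltf and Prss35, at oocyte-like medians of 25.7, 19.1, 12.6, 11.9 and 10.5 CPM. Of the 1426 higher genes, 253 had clone-style or predicted names, against 161 of the 2955 lower ones. The share of such names over all genes compared was not counted. The genes named in this paragraph were picked after their values were seen.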
